A study of Mus musculus with 9 samples.

Results

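The C/EBP factors and 3 other transcription factors of myeloid cells were followed in cultures of mouse LSK cells, sorted from bone marrow as lacking lineage markers and carrying Sca-1 and c-Kit, which holds blood stem cells and early progenitors. Members were all probe sets of 7 listed genes, Cebpa, Cebpb, Cebpd, Cebpe, Spi1, Gfi1 and Klf4, in the platform's table of probe sets and genes. It gave 9 probe sets for 6 of these genes, of 45037 probe sets in all (18193 genes), and Cebpe was not analysed here. LSK cells of wild-type C57/Bl6 mice were cultured over OP9 stromal cells for 3 days, and non-adherent cells were harvested. In the group OP9-DL1+CompoundE the feeder expressed the Notch ligand Delta-like 1 and the culture held 1 µM CompoundE, an inhibitor of the γ-secretase that cuts ligand-bound Notch. In OP9-DL1 the feeder expressed the ligand and no inhibitor was named, and OP9-GFP was the control feeder without it. Each group had 3 arrays. No label says whether the replicates were separate animals or cultures. The p-values therefore measure the spread among these arrays alone, and that spread may be technical.

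C/EBP proteins are basic leucine zipper factors that bind DNA as dimers. In blood formation C/EBPα is needed to pass from the common myeloid progenitor to the granulocyte and monocyte progenitor, and C/EBPβ and C/EBPδ act in later myeloid cells and in inflammation. PU.1, the ETS factor encoded by Spi1, is needed for macrophages, granulocytes and B cells, and its dose sets myeloid against other fates. Klf4 is a zinc finger factor of monocytes, and Gfi1 is a zinc finger repressor that favours granulocytes over monocytes.

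Values are the deposited log2 values of the arrays, and a difference of 1 is 2-fold. The median SD between replicates was 0.108 over all probe sets and groups. Values up to 3.64, the highest of 27 probe sets for bacterial transcripts, are called background, and all 9 member probe sets were above it on every array. Nrarp, a Notch target, averaged 5.02 ± 0.23 on OP9-DL1+CompoundE, 9.30 ± 0.12 on OP9-DL1 and 6.61 ± 0.016 on OP9-GFP (SD, n = 3 each). The blood cell marker Ptprc averaged 11.59, 11.38 and 11.53 in these groups, and Kit, the receptor used in the sort, 8.14, 10.22 and 8.94. The feeder markers Cxcl12 (12.08, 12.56 and 12.21) and Sparc (11.53, 12.05 and 11.43) were well above background in every group. In such bulk RNA fewer cells of a type and less RNA per cell cannot be told apart.

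On OP9-DL1 the values of Spi1, Cebpb, Cebpd and Klf4 were lower than on OP9-GFP by 1.62- to 1.90-fold where they passed the test, and Cebpa was 1.22-fold lower. With CompoundE on the same feeder Spi1, Cebpb, Cebpd and Klf4 were higher than on OP9-DL1, by 1.62- to 3.55-fold, and Cebpa was not called. Against OP9-GFP, OP9-DL1+CompoundE cultures had higher Spi1, Cebpb and Cebpd, lower Cebpa, and no called difference in Klf4. Gfi1 was not called in any of the 3 comparisons.

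Counted as probe sets, 7 of 9 were called between OP9-DL1 and OP9-GFP, 0 higher and 7 lower (limma adjusted p below 0.05, over all probe sets), where 24.9% of all probe sets were called, 12.1% higher and 12.8% lower. The groups did not overlap for 7 of 9, against 37.2% of all probe sets. Between OP9-DL1+CompoundE and OP9-DL1, 7 of 9 were called, all 7 higher, where 39.1% of all probe sets were called, 19.1% higher and 20.0% lower. The groups did not overlap for 7 of 9, against 47.0% of all. Between OP9-DL1+CompoundE and OP9-GFP, 6 of 9 were called, 5 higher and 1 lower, where 19.0% of all probe sets were called, 8.24% higher and 10.8% lower. The groups did not overlap for 6 of 9, against 31.7% of all. The median log2 difference of the 9 probe sets was -0.70, 0.96 and 0.46 in these 3 comparisons, beside -0.021, 0.058 and 0.028 over all probe sets. The 3 comparisons share arrays, so their counts are not independent, and probe sets of the same gene measure the same transcript. Shares of all probe sets, and of all genes further on, include dim ones. Of the 45037 probe sets, 30388 had a group mean above background, and the share called among them was not counted. All 9 members were above background, so these shares are not those of equally bright probe sets. The members were chosen with earlier results of these data known, so their counts are a description.

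**Figure D1:**
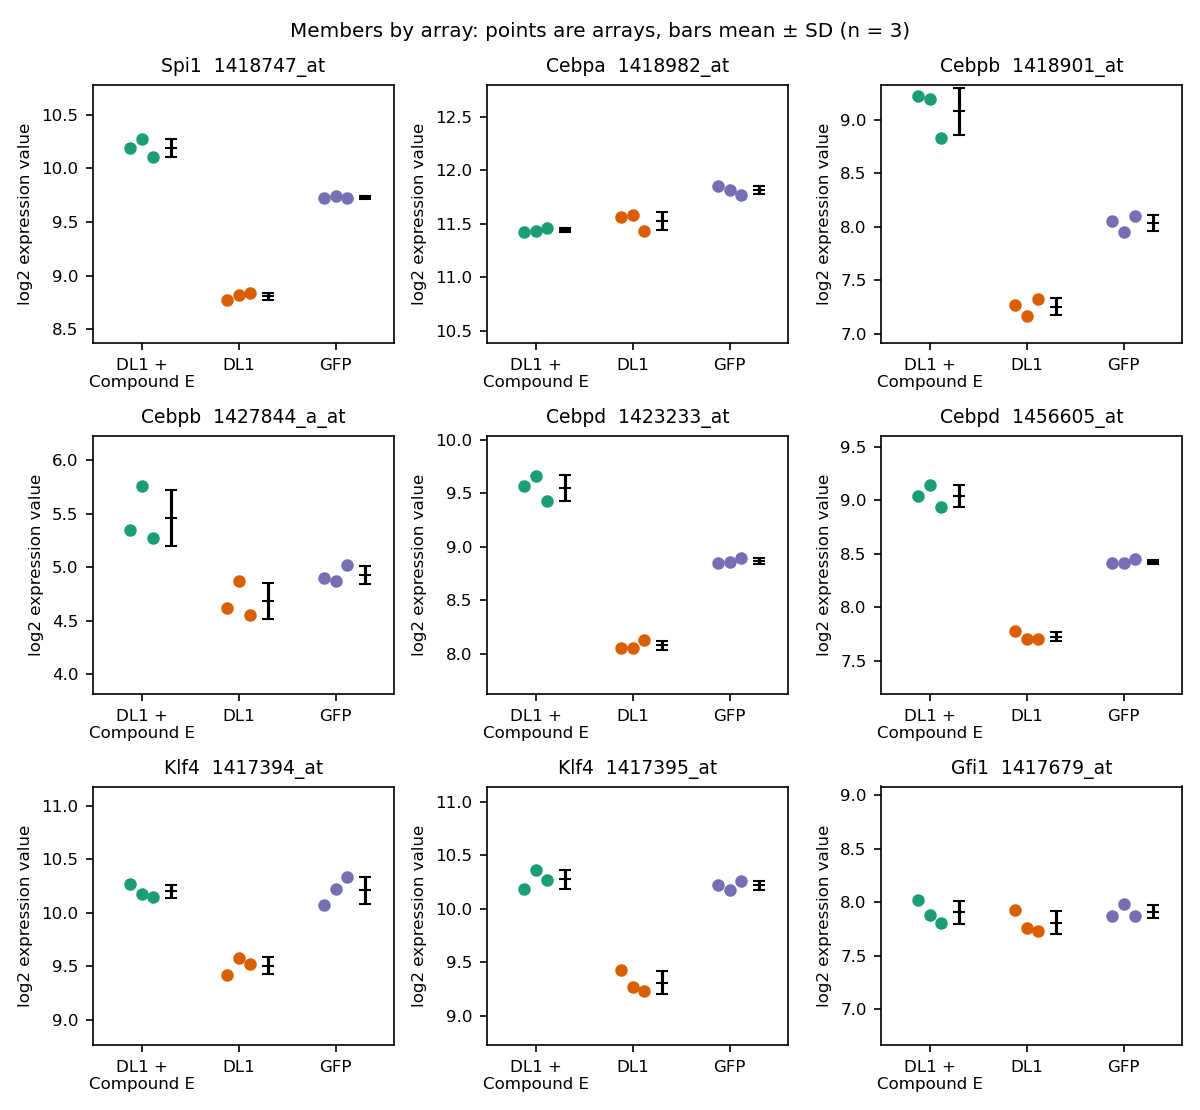
Deposited log2 values (vertical axes, all spanning the same range) of the 9 member probe sets on each array of OP9-DL1+CompoundE, OP9-DL1 and OP9-GFP; points are arrays and bars the mean ± SD (n = 3). Spi1, Cebpd, Klf4 and Cebpb probe set 1418901_at were lowest on the 3 OP9-DL1 arrays, Cebpa was highest on the 3 OP9-GFP arrays, and the Gfi1 values of the 3 groups overlapped.

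Spi1 (probe set 1418747_at) read 10.19, 10.28 and 10.11 on OP9-DL1+CompoundE, 8.77, 8.82 and 8.84 on OP9-DL1, and 9.72, 9.75 and 9.72 on OP9-GFP. Each OP9-DL1 array was below each OP9-GFP array, and each of these was below each OP9-DL1+CompoundE array, so the order of the 3 groups was without overlap. On OP9-DL1 the mean was 8.81 ± 0.033, against 9.73 ± 0.014 on OP9-GFP (SD, n = 3 each), a log2 difference of -0.92 ± 0.059 (SE) with a limma adjusted p of 5.63e-09. OP9-DL1+CompoundE averaged 10.19 ± 0.084 (SD, n = 3), which was higher than OP9-DL1 by 1.38 ± 0.059 (SE, limma adjusted p = 2.82e-11) and higher than OP9-GFP by 0.46 ± 0.059 (SE, limma adjusted p = 5.04e-05). Of all probe sets, 5.82% had a larger absolute difference than Spi1 between OP9-DL1 and OP9-GFP, and 4.11% between OP9-DL1+CompoundE and OP9-DL1.

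Cebpa (1418982_at), the C/EBP gene of early myeloid progenitors, read 11.43, 11.44 and 11.46 on OP9-DL1+CompoundE, 11.56, 11.59 and 11.43 on OP9-DL1, and 11.85, 11.82 and 11.77 on OP9-GFP. All 3 OP9-GFP arrays were above the other 6, and the values of the other groups overlapped. The mean on OP9-DL1 was 11.53 ± 0.083, against 11.81 ± 0.039 on OP9-GFP (SD, n = 3 each), a log2 difference of -0.29 ± 0.046 (SE, limma adjusted p = 0.000172). Of all probe sets, 26.4% differed by more. With CompoundE the mean was 11.44 ± 0.020 (SD, n = 3), which was -0.37 ± 0.046 (SE) from OP9-GFP (limma adjusted p = 3.84e-05) and -0.085 from OP9-DL1 (95% interval -0.18 to 0.013, limma adjusted p = 0.162). The last call depended on 1 array, since without OP9-DL1 replicate 3 the difference was -0.13 (limma adjusted p = 0.0289). With each array centred on its median it turned to 0.047 (limma adjusted p = 0.408).

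Cebpb, the gene of C/EBPβ, had 2 probe sets. The first, 1418901_at, read 9.22, 9.19 and 8.83 on OP9-DL1+CompoundE, 7.27, 7.17 and 7.32 on OP9-DL1, and 8.06, 7.95 and 8.10 on OP9-GFP. Its 3 groups did not overlap, with OP9-DL1 lowest and OP9-DL1+CompoundE highest. The mean was 7.25 ± 0.080 on OP9-DL1 and 8.03 ± 0.076 on OP9-GFP (SD, n = 3 each), a log2 difference of -0.78 ± 0.10 (SE, limma adjusted p = 1.79e-05). OP9-DL1+CompoundE averaged 9.08 ± 0.22 (SD, n = 3), a value 3.55-fold above OP9-DL1 (log2 difference 1.83 ± 0.10, SE, limma adjusted p = 5.99e-10) and 2.06-fold above OP9-GFP (1.04 ± 0.10, SE, limma adjusted p = 3.35e-06). These were the largest of the differences among the 9 member probe sets in both comparisons, and 1.44% of all probe sets differed more between OP9-DL1+CompoundE and OP9-GFP.

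The other Cebpb probe set, 1427844_a_at, read 5.35, 5.76 and 5.27 on OP9-DL1+CompoundE, 4.62, 4.87 and 4.56 on OP9-DL1, and 4.90, 4.87 and 5.02 on OP9-GFP. The OP9-DL1 and OP9-GFP values overlapped at their edge, and their difference of -0.25 ± 0.16 (SE) was not called (limma adjusted p = 0.313). The OP9-DL1+CompoundE arrays were above all others, by a mean of 0.78 over OP9-DL1 (limma adjusted p = 0.000764) and of 0.53 over OP9-GFP (limma adjusted p = 0.0248). The last call was lost without OP9-GFP replicate 1 (adjusted p = 0.0785), without OP9-GFP replicate 2 (0.0819) and without OP9-DL1+CompoundE replicate 2 (0.104). Over the 9 arrays both Cebpb probe sets had a Pearson r of 0.91, a description of arrays that fall into 3 groups.

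Cebpd, the gene of C/EBPδ, had 2 probe sets that moved alike, with a Pearson r of 0.998 over the 9 arrays. The first, 1423233_at, read 9.56, 9.66 and 9.43 on OP9-DL1+CompoundE, 8.05, 8.06 and 8.13 on OP9-DL1, and 8.85, 8.86 and 8.90 on OP9-GFP. Its 3 groups were in the same order as those of Spi1, without overlap. OP9-DL1 averaged 8.08 ± 0.042, against 8.87 ± 0.025 on OP9-GFP (SD, n = 3 each), a log2 difference of -0.79 ± 0.071 (SE, limma adjusted p = 3.35e-07). OP9-DL1+CompoundE averaged 9.55 ± 0.12 (SD, n = 3), higher than OP9-DL1 by 1.47 ± 0.071 (SE, limma adjusted p = 1.28e-10) and than OP9-GFP by 0.68 ± 0.071 (SE, limma adjusted p = 7.64e-06). In the probe set 1456605_at the values were 9.04, 9.14 and 8.94 on OP9-DL1+CompoundE, 7.77, 7.70 and 7.70 on OP9-DL1, and 8.41, 8.41 and 8.45 on OP9-GFP, again without overlap. The log2 differences there were -0.70 between OP9-DL1 and OP9-GFP, 1.32 between OP9-DL1+CompoundE and OP9-DL1, and 0.62 between OP9-DL1+CompoundE and OP9-GFP. The limma adjusted p were 1.89e-06, 6.72e-10 and 2.49e-05. Replicates 1 and 2 of OP9-GFP held exactly equal values in this probe set, which lowers the spread behind its p.

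Klf4 had 2 probe sets. Probe set 1417394_at read 10.27, 10.18 and 10.15 on OP9-DL1+CompoundE, 9.41, 9.58 and 9.52 on OP9-DL1, and 10.07, 10.22 and 10.33 on OP9-GFP. Probe set 1417395_at read 10.18, 10.36 and 10.27 on OP9-DL1+CompoundE, 9.43, 9.27 and 9.23 on OP9-DL1, and 10.22, 10.17 and 10.26 on OP9-GFP. In both, every OP9-DL1 array was below the other 6 arrays, and the values of those 6 overlapped between their groups. The log2 difference between OP9-DL1 and OP9-GFP was -0.70 ± 0.069 in the first and -0.91 ± 0.066 in the second (SE, limma adjusted p = 9.49e-07 and 2.45e-08). OP9-DL1+CompoundE was higher than OP9-DL1 by 0.70 ± 0.069 and 0.96 ± 0.066 (SE, limma adjusted p = 6.79e-07 and 7.92e-09). Between OP9-DL1+CompoundE and OP9-GFP the difference was -0.0085 (95% interval -0.16 to 0.14) in the first and 0.054 (-0.086 to 0.19) in the second, and neither was called (limma adjusted p = 0.951 and 0.623). 

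Gfi1 (1417679_at) read 8.02, 7.88 and 7.81 on OP9-DL1+CompoundE, 7.93, 7.76 and 7.73 on OP9-DL1, and 7.87, 7.98 and 7.87 on OP9-GFP, where replicates 1 and 3 held exactly equal values. The 3 groups overlapped, and no order can be read from their means of 7.90, 7.81 and 7.91. The difference between OP9-DL1 and OP9-GFP was -0.10 (95% interval -0.29 to 0.083, limma adjusted p = 0.485). OP9-DL1+CompoundE stood 0.098 from OP9-DL1 (-0.089 to 0.28, limma adjusted p = 0.404) and -0.0056 from OP9-GFP (-0.19 to 0.18, limma adjusted p = 0.975). With arrays centred on their medians the difference between OP9-DL1+CompoundE and OP9-DL1 was 0.23 and passed the test (limma adjusted p = 0.036), because that centring raises every value of this comparison by 0.13, the gap between the groups' array medians of 4.80 and 4.93.

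**Figure D2:**
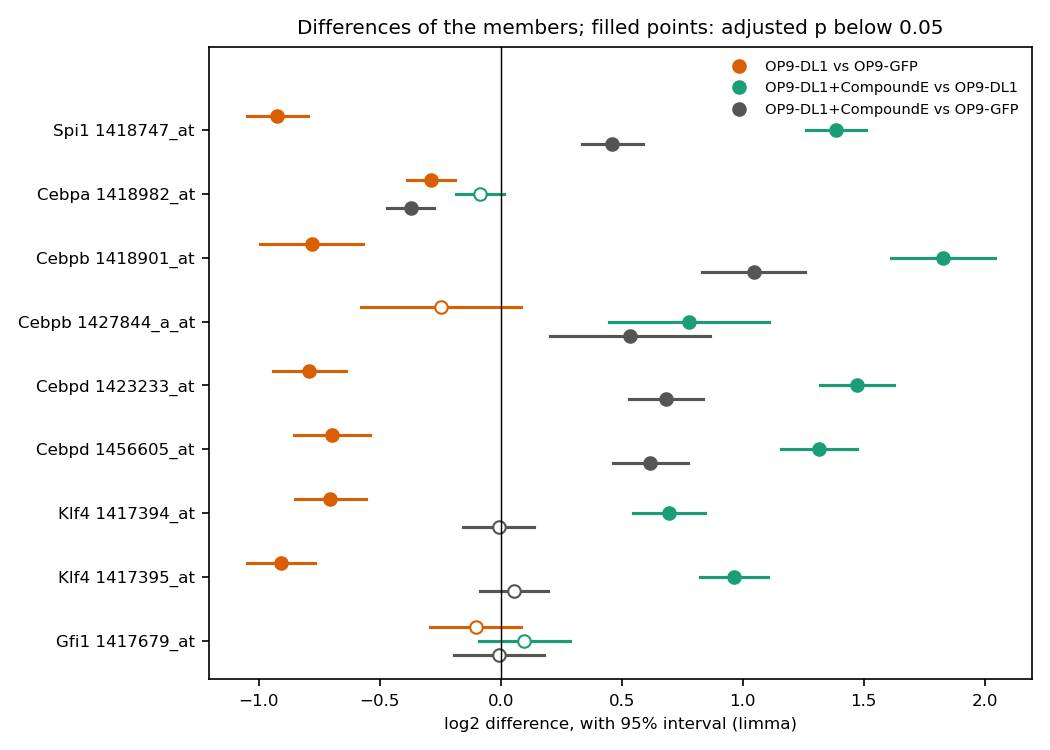
Log2 differences (horizontal axis) of the 9 member probe sets in the 3 comparisons, with 95% intervals from limma; filled points have an adjusted p below 0.05. Spi1, Cebpd and Cebpb probe set 1418901_at lie left of 0 for OP9-DL1 vs OP9-GFP and right of 0 for both comparisons of OP9-DL1+CompoundE, while Klf4 lies at -0.0085 and 0.054 for OP9-DL1+CompoundE vs OP9-GFP.

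Promoter sequences were held in the RefSeq table (build GRCm38.p6) for 4 of the 7 listed genes. The 250 bases before the annotated start are shown for Cebpb and Klf4, lower on OP9-DL1, and for Cebpa, whose levels had another order. Motifs were looked for on both strands: TTGCNNAA for C/EBP, GAGGAA for PU.1, CACCC and the GC box GGGCGG for KLF and Sp factors, and TGGGAA for RBPJ, the DNA-binding partner of Notch. The GC box was added after the sequences were seen. Matches are in capitals, and they are a description of letters, not of bound sites.
Cebpb, chr2:167688665-167688914, plus strand: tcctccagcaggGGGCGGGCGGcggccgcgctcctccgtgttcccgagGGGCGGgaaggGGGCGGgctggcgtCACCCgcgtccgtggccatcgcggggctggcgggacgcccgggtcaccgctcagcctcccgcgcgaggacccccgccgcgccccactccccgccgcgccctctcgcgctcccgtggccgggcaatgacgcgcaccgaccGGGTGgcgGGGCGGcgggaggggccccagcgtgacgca
Klf4, chr4:55532476-55532725, minus strand: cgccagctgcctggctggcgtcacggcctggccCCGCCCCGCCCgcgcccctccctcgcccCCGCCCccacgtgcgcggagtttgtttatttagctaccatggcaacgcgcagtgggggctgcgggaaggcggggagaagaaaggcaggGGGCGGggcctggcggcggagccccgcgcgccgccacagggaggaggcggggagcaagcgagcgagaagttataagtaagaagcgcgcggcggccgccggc
Cebpa, chr7:35119043-35119292, plus strand: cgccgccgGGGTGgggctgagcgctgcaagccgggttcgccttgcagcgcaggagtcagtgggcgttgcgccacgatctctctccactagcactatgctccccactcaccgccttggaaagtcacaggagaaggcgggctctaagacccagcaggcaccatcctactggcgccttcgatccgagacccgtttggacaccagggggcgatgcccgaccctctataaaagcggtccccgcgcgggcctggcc
The Cebpb window held 5 GC boxes, of which 2 overlap, and 2 CACCC matches. That of Klf4 held 4 GC boxes, of which 2 share a base, and that of Cebpa 1 CACCC match. None of the 3 windows held the C/EBP, PU.1 or RBPJ letters searched. Gfi1 had 2 windows, not printed, of which 1 held 1 C/EBP match and 2 CACCC matches. Over 32851 promoter windows of this length, 9.56% held the C/EBP letters, 23.3% those of PU.1, 52.0% CACCC, 32.7% the GC box and 21.6% TGGGAA. The windows were 81.6% G or C for Cebpb, 74.0% for Klf4 and 66.4% for Cebpa.

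Other genes of the pathway were taken from 6 lists, with a gene represented by whichever of its probe sets had the highest 9-array mean, and counts are read against the same kind of count over the 18193 genes. Between OP9-DL1 and OP9-GFP 31.0% of genes were called, 15.1% higher and 16.0% lower (median log2 difference -0.021), between OP9-DL1+CompoundE and OP9-DL1 44.9%, 23.8% higher and 21.0% lower (0.080), and between OP9-DL1+CompoundE and OP9-GFP 21.3%, 11.3% higher and 10.0% lower (0.047). Of the other C/EBP family, Cebpg, whose protein dimerises with other C/EBPs, was lower on OP9-DL1 than on OP9-GFP by a log2 difference of -0.29 (limma adjusted p = 0.00611). Ddit3, the gene of the stress factor CHOP, was not called there (0.21). Neither was called between OP9-DL1+CompoundE and OP9-DL1 (0.16 for Cebpg and 0.064 for Ddit3).

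Factors known to work with or against C/EBP and PU.1 moved both ways. On OP9-DL1, 17 of 32 were higher and 8 lower than on OP9-GFP, with a median log2 difference of 0.28. Gata1, the erythroid and megakaryocyte factor that binds PU.1 and opposes it, averaged 9.25 on OP9-DL1, against 7.10 on OP9-GFP, a difference of 2.15 (limma adjusted p = 1.3e-11). Gata2, a factor of stem cells, mast cells and megakaryocyte precursors, differed by 1.82, and Gfi1b, the Gfi1 paralog of erythroid and megakaryocyte cells, by 1.84. Egr1, an immediate early factor that favours monocytes, was higher by 1.05. Spic, an ETS factor related to PU.1, averaged 8.09 on OP9-DL1 and was at background on OP9-GFP (3.54), so only a bound holds, at least 21.8-fold higher when set against the background level of 3.64 (limma adjusted p = 9.38e-13). In the other direction Irf4, an interferon regulatory factor that binds DNA together with PU.1, averaged 6.84 on OP9-DL1 and 10.37 on OP9-GFP, a difference of -3.53 (limma adjusted p = 3.33e-14). Gfi1b was thus called where Gfi1 was not, and the difference between the paralogs' changes was not tested.

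With CompoundE 9 of the 32 were higher and 15 lower than on OP9-DL1, with a median of -0.19. Gata1 averaged 6.27, against 9.25 on OP9-DL1, a difference of -2.98 (limma adjusted p = 1.91e-13). The differences were -2.72 for Gata2, -2.76 for Gfi1b, -1.33 for Egr1 and -4.37 for Spic, each called, and Spic averaged 3.72 with CompoundE, close to the background level. Irf4 was higher than on OP9-DL1 by 2.74. Against OP9-GFP, 5 of the 32 were higher and 13 lower with CompoundE, the lower ones including Gata1 (-0.83), Gata2 (-0.90), Gfi1b (-0.91), Irf4 (-0.79) and Egr1 (-0.28). Spi1, Cebpb and Cebpd were above OP9-GFP in the same cultures, and their difference from Irf4 was not tested.

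**Figure D3:**
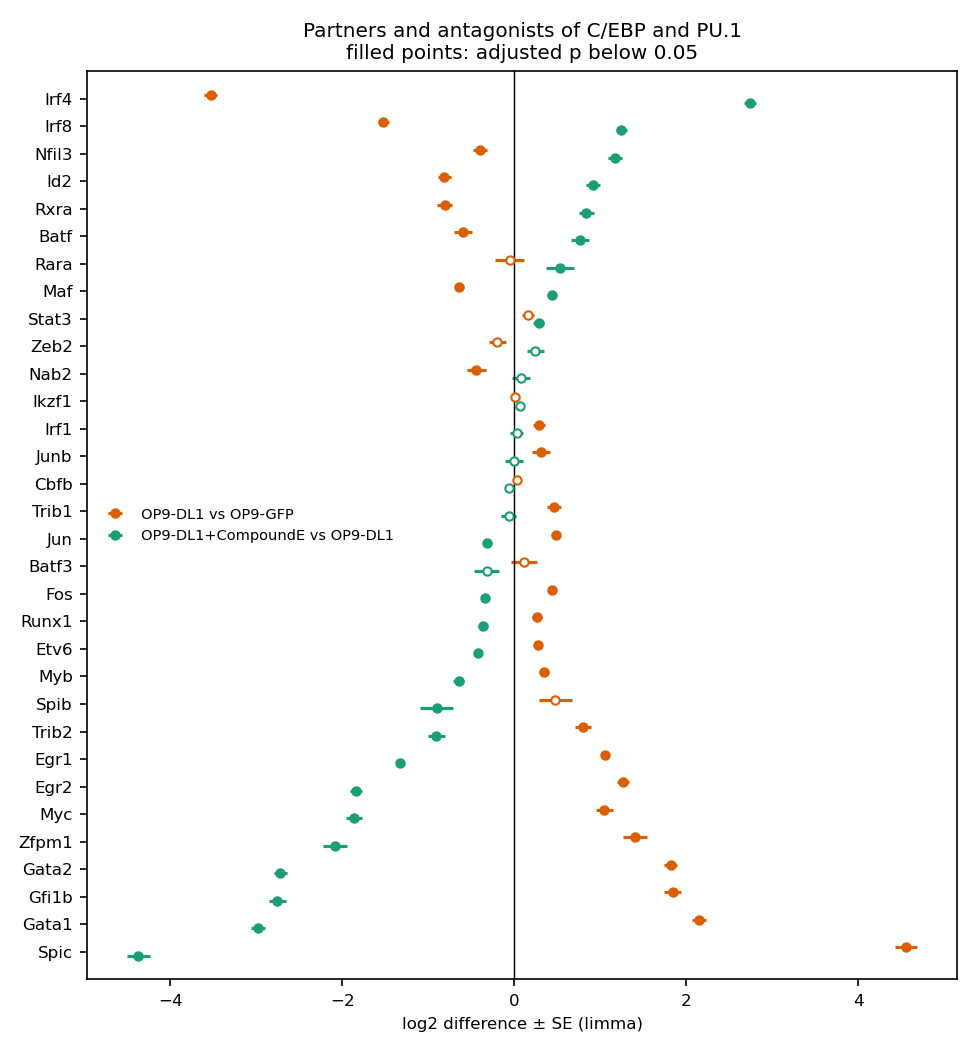
Log2 differences ± SE (horizontal axis) of the 32 measured partners and antagonists of C/EBP and PU.1, for OP9-DL1 vs OP9-GFP and OP9-DL1+CompoundE vs OP9-DL1; filled points have an adjusted p below 0.05. For OP9-DL1 vs OP9-GFP, Gata1, Gfi1b and Gata2 lie at 2.15, 1.84 and 1.82 and Irf4 at -3.53, and the value drawn for Spic (4.55) rests on an OP9-GFP mean at background.

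Among 9 other Klf genes, 0 were higher and 2 lower on OP9-DL1 than on OP9-GFP, Klf13 (-0.51, limma adjusted p = 5.02e-07) and Klf10 (-0.35, 0.000145). With CompoundE 4 were higher and 1 lower than on OP9-DL1. Klf13 differed by 0.81, Klf2, a factor of resting lymphocytes and endothelium, by 0.59, Klf10 by 0.50 and Klf3 by 0.47, and Klf9 by -0.40. Klf5 was not called in either comparison (0.48 and -0.39). Of all genes 31.0% were called between OP9-DL1 and OP9-GFP and 44.9% between OP9-DL1+CompoundE and OP9-DL1. The 2 of 9 and 5 of 9 called here stand near those shares, so they are no result about Klf genes as a group. Klf13 was also higher in OP9-DL1+CompoundE cultures than on OP9-GFP (0.30, limma adjusted p = 0.000399), where Klf4 was not called, and the difference between both genes was not tested.

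Myeloid receptor and effector genes, many of them known targets of PU.1 or C/EBPs, mostly moved in the direction of Spi1, Cebpb, Cebpd and Klf4 in the comparisons with OP9-DL1. On OP9-DL1 1 of 18 was higher and 16 lower than on OP9-GFP, with a median log2 difference of -1.08. Fcgr1, the high-affinity IgG receptor, averaged 6.36 on OP9-DL1 and 9.74 on OP9-GFP, a difference of -3.38 (limma adjusted p = 2.31e-14). Cd68, a lysosomal protein of macrophages, differed by -2.08, Cd14, a coreceptor for endotoxin, by -1.68, Tlr2, a receptor for bacterial lipoproteins, by -1.52 and Ncf4, a subunit of the phagocyte oxidase, by -1.32. The exception was Il1b, the interleukin-1β gene, a known C/EBPβ target, at 10.22 on OP9-DL1 and 7.88 on OP9-GFP, a difference of 2.34 (limma adjusted p = 4.8e-13). With CompoundE 17 of 18 were higher and 1 lower than on OP9-DL1 (median 1.55). Fcgr1 was higher by 3.94, Cd68 by 2.41, Tlr2 by 2.39, Cd14 by 1.91 and Ncf4 by 1.59, and the 1 lower gene was again Il1b (-0.50). Against OP9-GFP 14 were higher and 0 lower (median 0.36), including Il1b (1.84) and Tlr2 (0.87).

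Granule genes of the neutrophil lineage did not move as 1 group. The list of primary granule genes, expressed in promyelocytes, had 0 higher and 6 lower of 6 on OP9-DL1 against OP9-GFP (median -0.52). It included the proteinase genes Ctsg (-0.60), Elane (-0.53) and Prtn3 (-0.52), the myeloperoxidase gene Mpo (-0.19) and Ms4a3 (-0.29). Igsf6 (-0.58), which also stands in it, encodes an immunoglobulin-like receptor, so not every gene of the list encodes a granule protein. With CompoundE 5 of 6 were higher and 0 lower than on OP9-DL1 (median 0.26), by 0.39 for Ctsg, 0.29 for Prtn3 and 0.22 for Elane. Mpo was not called (0.022), and Igsf6 had the largest value (1.05). Against OP9-GFP 5 were lower and 1 higher with CompoundE, the higher one being Igsf6 (0.47). Ctsg (-0.21), Elane (-0.31), Mpo (-0.17), Prtn3 (-0.23) and Ms4a3 (-0.13) were lower there, as was Cebpa. Of the 6 genes 3 were called with arrays centred on their medians, and 3 without an intensity trend.

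Secondary and tertiary granule genes, several of which depend on C/EBPε, had 9 higher and 3 lower of 14 on OP9-DL1 against OP9-GFP (median 0.57). Ltf, the lactoferrin gene, was higher on OP9-DL1 by 2.83 (limma adjusted p = 3.57e-12). Camp, the cathelicidin gene, differed by 2.45, the lipocalin gene Lcn2 by 1.74 and Ngp by 1.5. Lower were, among others, the collagenase gene Mmp8 (-4.52) and Cybb (-1.13), an oxidase subunit gene that also stands among the receptor and effector genes. With CompoundE 4 were higher and 8 lower than on OP9-DL1 (median -0.31), with Ltf at -1.40, Camp at -1.23, Ngp at -1.08, Lcn2 at -0.58 and Mmp8 at 5.38. Against OP9-GFP 12 of 14 were higher and 0 lower (median 0.72), with Ltf at 1.43, Camp at 1.22, Lcn2 at 1.17 and Mmp8 at 0.86. Ltf, Camp, Lcn2 and Ngp were thus highest on OP9-DL1, where Spi1, Cebpb and Cebpd were lowest.

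**Figure D4:**
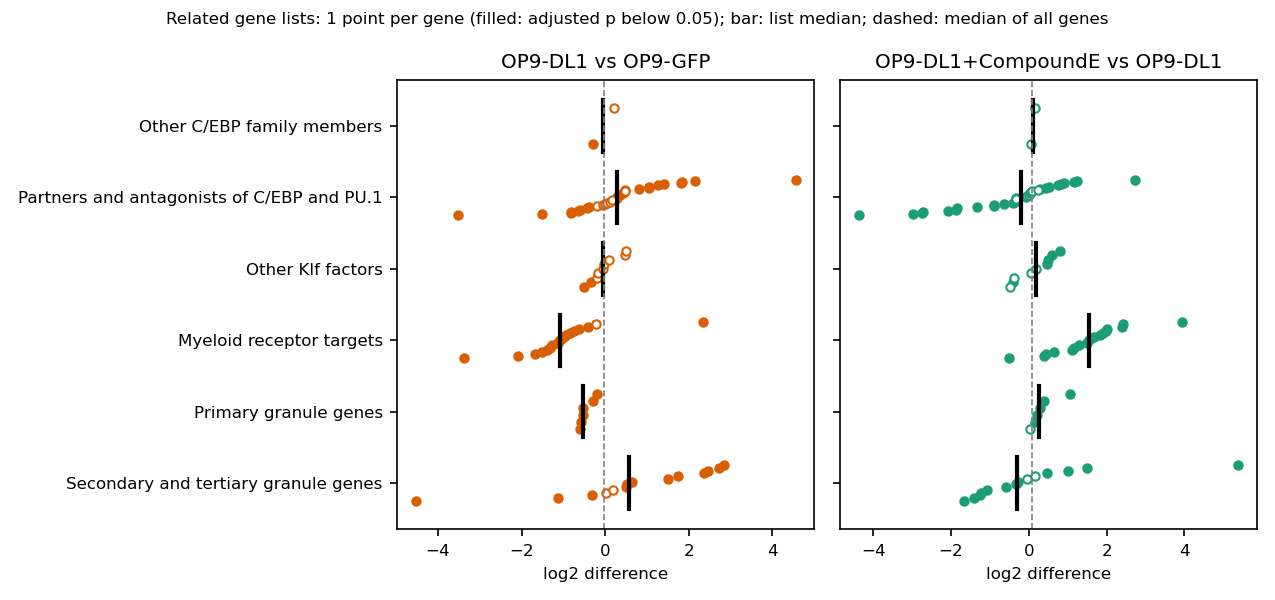
Log2 differences (horizontal axes) of the genes of 6 related lists for OP9-DL1 vs OP9-GFP and OP9-DL1+CompoundE vs OP9-DL1; each point is a gene, filled where its adjusted p is below 0.05, the bar is the list's median and the dashed line the median of all genes. The medians of the myeloid receptor targets (-1.08 and 1.55) lie farthest from that of all genes, and secondary and tertiary granule genes lie on both sides of it.

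Markers of the cell types that the harvest could hold moved with the members or against them. Their part in the members' differences was not tested. Shares of all genes beside these counts and those of the feeder were 31.0% called between OP9-DL1 and OP9-GFP (15.1% higher, 16.0% lower). They were 44.9% between OP9-DL1+CompoundE and OP9-DL1 (23.8% higher, 21.0% lower) and 21.3% between OP9-DL1+CompoundE and OP9-GFP (11.3% higher, 10.0% lower). Macrophage and monocyte markers were lower on OP9-DL1 than on OP9-GFP in 9 of 9 cases, and their summed level on the log2 scale was 12.92 to 13.04 on OP9-DL1 and 14.40 to 14.46 on OP9-GFP. With CompoundE 9 of 9 were higher than on OP9-DL1, with a summed level of 14.64 to 14.68, and 7 of 9 were higher and 1 lower than on OP9-GFP. Cd68, Csf1r, Cd14 and Fcgr1 also stand among the receptor and effector genes above, so both counts share them. Megakaryocyte and platelet markers ran the other way, with 7 of 7 higher on OP9-DL1 (14.21 to 14.23, against 12.80 to 12.84 on OP9-GFP) and 7 of 7 lower with CompoundE (12.24 to 12.31). Mast cell and basophil markers were higher in 5 of 6 cases on OP9-DL1 (11.53 to 11.57, against 10.41 to 10.51 on OP9-GFP) and lower in 5 of 6 with CompoundE (9.60 to 9.61). Mcpt4, among the 5 in each count, was at background on OP9-GFP (2.90) and with CompoundE (2.87). Granulocyte markers were split, with 5 of 8 higher and 3 lower on OP9-DL1 (15.03 to 15.08, against 14.70 to 14.72 on OP9-GFP), and 2 higher and 5 lower with CompoundE (14.79 to 14.82). All of these but Cxcr2 also stand in the receptor or granule lists above, so they are no separate count. Among erythroid markers 2 of 5 were higher on OP9-DL1 (10.49 to 10.51, against 8.43 to 8.65 on OP9-GFP) and 2 of 5 lower with CompoundE (7.11 to 7.31), while Hba-a1 and Alas2 were at background in every group. The 2 of 5 called in each stands near the share of all genes called, and Klf1 also stands among the other Klf genes. Stem and progenitor markers had 3 of 6 higher and 2 lower on OP9-DL1 (12.59 to 12.75, against 12.64 to 12.75 on OP9-GFP), and 2 higher and 3 lower with CompoundE (12.33 to 12.54). Their sums mostly follow the brightest genes, Cd34 and the blood cell marker Ptprc, so near-equal sums do not mean that the single markers were unchanged. On OP9-DL1 Kit (1.28), Meis1 (1.66) and Hlf (1.01) were higher than on OP9-GFP, Flt3 (-1.51) and Cd34 (-0.35) were lower, and Ptprc was not called.

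Cebpb, Cebpd and Klf4 are known to be expressed in stromal cells too, and Cebpa, Cebpb and Cebpd act in fat cell formation, which OP9 cells can undergo. Feeder markers ran opposite to Spi1, Cebpb, Cebpd and Klf4 in both comparisons with OP9-DL1. The feeder's part in the members' differences was not tested. Of 12 stromal markers 11 were higher and 0 lower on OP9-DL1 than on OP9-GFP, with a summed level of 14.21 to 14.24 on OP9-DL1 and 13.60 to 13.63 on OP9-GFP. With CompoundE 11 were lower and 0 higher than on OP9-DL1, with a summed level of 13.61 to 13.63. Thy1, among the 11 in each count, was at background on OP9-GFP (3.47) and close to it with CompoundE (3.66). Of 5 adipocyte markers 4 were higher on OP9-DL1 (12.24 to 12.28, against 11.61 to 11.74 on OP9-GFP) and 4 lower with CompoundE (11.32 to 11.36), while Cidec was at background in every group. Between OP9-DL1+CompoundE and OP9-GFP, 3 of the 12 stromal markers were higher and 3 lower. Of the 5 adipocyte markers 0 were higher and 2 lower there.

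For each member, the 3 genes with the most similar values over the 9 arrays were listed. Likeness was Pearson's r with the member's brightest probe set, among 1847 or 1848 genes whose group means spanned at least 1, and it is given as a description, since the 9 arrays form 3 groups. For Spi1 these were Hopx, a homeodomain gene (r = 0.999), Bri3 (0.998) and Arhgap24 (0.998), and for Cebpd Cd300lf, an inhibitory receptor of myeloid cells (0.998), Ctsl, the cathepsin L gene (0.997), and Itgb2, the β2 integrin gene (0.997). For Cebpb they were Slc16a3, a lactate transporter gene (0.99), Akna (0.99) and Csf3r, the G-CSF receptor gene (0.99). Csf3r averaged 9.64 on OP9-DL1+CompoundE, 7.80 on OP9-DL1 and 8.54 on OP9-GFP. For Klf4 they were the chemokine gene Cxcl10 (0.99), Cav2 (0.98) and Ahrr (0.98), and Cxcl10 averaged 6.86 on OP9-DL1+CompoundE, 5.61 on OP9-DL1 and 6.89 on OP9-GFP. For Cebpa they were C1qc (0.96) and C1qb (0.93), which encode chains of complement C1q, and Insyn2a (0.93). C1qc averaged 4.18 on OP9-DL1+CompoundE, 4.55 on OP9-DL1 and 6.81 on OP9-GFP. For Gfi1 the highest were lower, at 0.76 for Pwwp2b, 0.69 for St14 and 0.68 for Best1. Its group means spanned 0.10, and only genes spanning at least 1 were compared, so the lower r cannot be read as a trait of Gfi1. The group means of Cebpa (0.37) and of Klf4 1417394_at (0.70) also spanned less than 1, so genes with spans as small as theirs were not compared.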

How the data were processed

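RNA of 9 samples was amplified from 25 ng and labelled, per the labels' protocols, and read on 1-colour oligonucleotide arrays. The deposited log2 values hold 1 number for each probe set on each array. MAS5 and GCRMA 2.4.1 are named, per the submitters' processing notes, without their roles, and the step behind the values was not settled. The number of arrays limits the precision. Exactly equal values stood within a group in 5231 (OP9-GFP), 4004 (OP9-DL1) and 2827 (OP9-DL1+CompoundE) probe sets, for an unknown reason, which lowers their spread.

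Groups and replicate numbers came from the titles. Probe sets were named by the platform annotation, with 34945 having 1 symbol, 932 several and 9160 none. Of those with 1 symbol, 34741 took the RefSeq symbol of their gene ID (GRCm38.p6, for names), whether or not it differed. All 45037 probe sets other than 64 controls entered 1 limma 3.58.1 fit (R 4.3.3) of the 9 arrays by group, with no covariate and an intensity trend in eBayes. Benjamini-Hochberg adjustment covered all of them, with a threshold of 0.05. The code of the fit was run on simulated data with independent normal noise and few changed probe sets. That run checks the code and not the p-values of these arrays. No filter was applied. Summed marker levels are log2 of the sum of linear values. Nothing shows that replicate numbers pair arrays (correlations of same-numbered arrays' deviations from -0.093 to 0.095).

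Named were all member probe sets, up to 6 genes of each list with the smallest p over the first 2 comparisons, defining markers, and the 3 genes most like each member, skipping clone-like symbols. Ptprc, Kit, Cxcl12 and Sparc were named after their values were seen. Members and lists were chosen with earlier results of these data known. Alternatives were log2(2^value + 32), quantile normalization, median centring, filters on dim probe sets or equal values, 1 probe set or the mean of probe sets per gene, no trend, 6 arrays, the replicate block, each array left out, and a 2-fold threshold.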

Additional observations from a re-analysis of the deposited data

How the results depend on the processing

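Of 543 differences of a member probe set under an alternative, 512 kept their direction and side of the threshold, 18 lost and 2 gained a call, and 11 turned direction, none of the 11 being called in the setting that turned it. With 1 probe set a gene, or with probe sets averaged, 4 of 6 genes were called between OP9-DL1+CompoundE and OP9-DL1, against 7 of 9 probe sets, because fewer probe sets were counted. A 2-fold threshold left 0 of 7 calls between OP9-DL1 and OP9-GFP, 4 of 7 between OP9-DL1+CompoundE and OP9-DL1, and 1 of 6 between OP9-DL1+CompoundE and OP9-GFP, since it removes smaller differences: -0.29 (Cebpa), -0.78 (Cebpb), -0.79 and -0.70 (Cebpd), -0.70 and -0.91 (Klf4) and -0.92 (Spi1) in the first, 0.78 (Cebpb 1427844_a_at), 0.70 and 0.96 (Klf4) in the second, and -0.37 (Cebpa), 0.53 (Cebpb 1427844_a_at), 0.68 and 0.62 (Cebpd) and 0.46 (Spi1) in the third. The share of all probe sets passing the 2-fold threshold was not counted. Leaving out each array gave 7 to 7, 7 to 8 and 5 to 6 called in the 3 comparisons. Between OP9-DL1+CompoundE and OP9-GFP it moved Cebpb 1427844_a_at over 0.38 to 0.63, Gfi1 over -0.065 to 0.043 and Klf4 1417394_at over -0.075 to 0.054, and between OP9-DL1+CompoundE and OP9-DL1 Cebpa over -0.13 to -0.056. Median centring gave Cebpa 0.047 and Gfi1 0.23 (now called) between OP9-DL1+CompoundE and OP9-DL1, and Gfi1 0.087 and Klf4 1417394_at 0.084 between OP9-DL1+CompoundE and OP9-GFP. In that comparison quantile normalization gave Gfi1 0.0020, and averaging probe sets gave Klf4 0.023. With the replicate block 7, 7 and 6 of 9 were called, and no member's call changed.

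Calls in the lists held within 1.5 times without a 2-fold threshold, except other Klf factors (1 to 5, against 2, between OP9-DL1 and OP9-GFP, and 2 to 6, against 5, between OP9-DL1+CompoundE and OP9-GFP), primary granule genes (3 to 6, against 6, in the last) and the 2 other C/EBP genes (1 to 2, 0 to 1 and 0 to 1, against 1, 0 and 1). With a 2-fold threshold counts in the 3 comparisons were 10, 11 and 0 for partners and antagonists, 11, 14 and 2 for receptor targets, 8, 8 and 6 for secondary and 0, 1 and 0 for primary granule genes, and 0 for other Klf and C/EBP genes. The share of all genes passing that threshold was not counted, so these counts have nothing to be read against.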
